A study of Mus musculus with 4 samples.

Results

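The genes described here are 53 interferon-stimulated and MHC class I genes of the mouse heart, listed by name from what they are known to do, with earlier results of these data known. All 53 of them were found among the 23282 rows of the heart mRNA-seq data, and a symbol with more than 1 row was taken from the row with the highest mean. By role they comprised 12 sensors and signalling genes, 19 antiviral effectors, 4 membrane restriction factors, 12 interferon-inducible GTPases and 6 genes of MHC class I presentation.

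The hearts came from male CDF1 mice, the F1 hybrid of the BALB/c and DBA/2 strains, labelled with an age of postnatal day 28. Per the paper, the mice were purchased at 4 weeks of age and killed at the end of the experiment. The labelled age thus matches the purchase, and the hearts were taken later. There were 4 groups with 1 library each: no exercise and no tumor (E-&T-), exercise and no tumor (E+&T-), tumor and no exercise (E-&T+), and both (E+&T+). Exercise was high-intensity treadmill running, and mice with a tumor had received cells of CT26, a mouse colorectal cancer line of BALB/c origin, through the tail vein. No genotype or allele separates the groups. The study describes a representative mouse per group for muscle, and whether each heart library holds 1 heart or several is not given in the sources used here. With 1 library per group there is no replicate within a group, so the differences between 2 groups given below have no measure of the spread between mice beside them. The effect of tumor or of exercise over 2 libraries a side was not tested.

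Interferons are signalling proteins that cells release on infection or injury. Type I interferons act through the receptor chains Ifnar1 and Ifnar2 and bring a complex that holds Stat2 and Irf9 to a promoter element called ISRE, while interferon gamma acts through Ifngr1 and Ifngr2 and an element called GAS. The induced genes encode sensors of viral RNA, enzymes that block viral replication, membrane proteins that stop viral entry or release, GTPases that attack the vacuoles of intracellular parasites, and the machinery that shows peptides on MHC class I to CD8 T cells. Many of these genes are also read at a basal level in uninfected tissue, and in the heart they are read in endothelial cells, fibroblasts and resident macrophages as well as in cardiomyocytes.

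The values are log2 normalized read counts from QuantSeq, a kit that reads each mRNA near its 3′ end, and a level therefore does not scale with transcript length. The reads behind them could be recovered. The E-&T- library totalled 6595378 reads, the E+&T- library 8477216, the E-&T+ library 9532886 and the E+&T+ library 11545925. The E+&T+ library stood apart, as globin reads made up 37.3% of it and between 7.86% and 8.76% of the others. All 10 of the cardiomyocyte markers were read in each library, with summed levels of 458515, 462035, 475706 and 514689 normalized reads for E-&T-, E+&T-, E-&T+ and E+&T+. Values over the libraries are given in this same order below, in normalized reads unless stated otherwise. A fold change is the difference of the deposited log2 values, its 95% interval is the exact Clopper-Pearson interval of the recovered reads and covers counting error only, and a gene was called higher or lower when it changed by at least 2-fold with at least 4 normalized reads in 1 of the 2 libraries.

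To show the elements through which these genes are known to be induced, the promoters of 6 of them are printed, from 250 bases before to 50 bases after the start of the gene, as given by RefSeq for GRCm38.p6. Gbp7 and Igtp stand for the GTPases that were lower in every other library than in E-&T-, Irf1 for a gene that was lower in both libraries with a tumor, Ifitm3 for the genes that were higher there, and Isg15 and Rsad2 for genes that were higher in E+&T+ than in E-&T+. Capitals mark each match to the ISRE core, taken as GAAA, any 2 bases and GAAA, or to the GAS core TTCNNNGAA, on either strand. Their positions are chr3:142530086-142530385, plus strand, for Gbp7; chr11:58199306-58199605, plus strand, for Igtp; chr11:53769764-53770063, plus strand, for Irf1; chr7:141010695-141010994, minus strand, for Ifitm3; chr4:156200769-156201068, minus strand, for Isg15; and chr12:26456403-26456702, minus strand, for Rsad2.
Gbp7: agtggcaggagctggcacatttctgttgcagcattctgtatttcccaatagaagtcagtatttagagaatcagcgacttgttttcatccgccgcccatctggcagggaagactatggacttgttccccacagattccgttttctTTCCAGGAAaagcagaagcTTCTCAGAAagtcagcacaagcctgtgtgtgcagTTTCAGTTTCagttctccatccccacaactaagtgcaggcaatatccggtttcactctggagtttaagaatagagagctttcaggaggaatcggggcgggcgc
Igtp: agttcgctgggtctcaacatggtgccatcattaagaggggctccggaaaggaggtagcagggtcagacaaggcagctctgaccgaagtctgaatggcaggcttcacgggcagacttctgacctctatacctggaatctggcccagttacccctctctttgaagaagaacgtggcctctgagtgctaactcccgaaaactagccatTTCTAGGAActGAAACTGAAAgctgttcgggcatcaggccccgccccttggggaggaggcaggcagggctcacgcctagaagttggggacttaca
Irf1: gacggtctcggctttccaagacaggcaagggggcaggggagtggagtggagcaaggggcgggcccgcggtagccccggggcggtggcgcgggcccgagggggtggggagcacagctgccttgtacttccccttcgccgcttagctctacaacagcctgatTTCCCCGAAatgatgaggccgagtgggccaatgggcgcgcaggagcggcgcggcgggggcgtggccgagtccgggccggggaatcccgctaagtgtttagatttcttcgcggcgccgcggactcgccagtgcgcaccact
Ifitm3: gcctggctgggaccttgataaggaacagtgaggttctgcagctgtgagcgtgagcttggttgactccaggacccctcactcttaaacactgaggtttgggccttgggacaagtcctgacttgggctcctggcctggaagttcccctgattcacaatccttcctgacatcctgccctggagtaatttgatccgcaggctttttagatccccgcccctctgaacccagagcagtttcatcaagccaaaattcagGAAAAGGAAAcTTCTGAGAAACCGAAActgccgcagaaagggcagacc
Isg15: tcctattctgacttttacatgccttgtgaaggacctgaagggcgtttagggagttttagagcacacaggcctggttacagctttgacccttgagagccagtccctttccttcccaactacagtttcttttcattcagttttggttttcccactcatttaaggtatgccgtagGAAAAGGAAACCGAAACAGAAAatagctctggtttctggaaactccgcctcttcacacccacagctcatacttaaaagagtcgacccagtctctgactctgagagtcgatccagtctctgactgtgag
Rsad2: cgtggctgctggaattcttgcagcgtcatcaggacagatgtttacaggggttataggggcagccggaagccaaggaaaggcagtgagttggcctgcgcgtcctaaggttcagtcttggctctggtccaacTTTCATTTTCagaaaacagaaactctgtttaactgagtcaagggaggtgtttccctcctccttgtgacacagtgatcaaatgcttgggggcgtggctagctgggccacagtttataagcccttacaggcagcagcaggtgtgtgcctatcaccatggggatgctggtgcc

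Promoters were given for 39 of the 53 genes. An ISRE core was found in 21 of the 39, or 53.8%, against 3.99% of the 27025 genes with a promoter, and a GAS core in 12 of the 39, or 30.8%, against 9.55%. The 2 motifs overlapped each other in the promoters of 2 of these genes, Ifitm3 and Bst2. The GTPases had the most, with an ISRE core in 8 and a GAS core in 5 of 9 promoters. In Gbp7 the ISRE core began 53 bases before the start of the gene and the GAS cores 106 and 87 bases before it, and in Igtp the ISRE core began at 34 and the GAS core at 45 bases before it. Isg15 held 3 overlapping ISRE cores that began 78, 72 and 66 bases before the start, and Irf1 held 1 GAS core and no ISRE core. Of the 5 promoters of the MHC class I group, only that of B2m held an ISRE core, and none held a GAS core. A match of letters is a description of the window and not a bound site.

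In the E-&T+ heart, of the group given tumor cells, 41 of the 53 genes were below their level in the E-&T- heart. There 21 of the 53 were called lower, or 39.6%, and 5 were called higher, or 9.43%, whereas of all genes tested 13.1% were called lower and 14.6% higher. Their median log2 fold change was −0.79, where the median of all genes was −0.01. The genes called higher were Irf8, Bst2, Ifitm1, Ifitm2 and Ifitm3, which include all 4 of the membrane restriction factors. For 35 of the 53 genes the counting interval lay below 0, and for 6 it lay above 0, against 28.1% and 27.9% of all genes tested.

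With exercise and no tumor, 11 of the 53 genes were called lower and none higher, in E+&T- against E-&T-. The background for this comparison was 6.4% of genes called lower and 5.88% called higher, and 11 of 53 is 20.8%. The genes called lower were the GTPases Iigp1, Igtp, Tgtp1, Gbp2, Gbp4, Gbp5 and Gbp7, together with Oas2, Ifitm1, Zbp1 and Tap1. In all, 43 of the 53 were below their E-&T- level, and the median was −0.48 against 0.002 for all genes. This comparison and the former share the E-&T- library, so a high level in that library lowers both.

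In E+&T+ against E+&T-, which does not use the E-&T- library, 11 of the 53 were called lower and 6 higher, on a background of 11.1% lower and 12% higher. The median was −0.31, and −0.009 for all genes. Scaling by library total gave 28 lower and 4 higher, since it moved the median of all genes to −0.74. Under it 35.3% of all genes were called lower and 5.62% higher. Leaving the globin genes out of the total gave 14 lower and 6 higher, against 14.5% and 10.2% of all genes. Of the 21 genes called lower with a tumor in mice without exercise, 8 were also called lower here, which is 38.1% of the 21 and 72.7% of the 11, where 30.6% and 36.2% of all genes called lower in these comparisons were shared. These were Irf1, Oas2, Oasl2, Ifi44, Tgtp1, Parp14, Rtp4 and Cmpk2, and the pair of comparisons shares no library.

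With exercise in mice with a tumor, in E+&T+ against E-&T+, 8 of 52 genes tested were called higher and 4 lower, on a background of 9.39% higher and 10.0% lower. The genes called higher were Isg15, Irf7, Oas1a, Oas3, Oasl2, Rsad2, Ifi27 and Gbp6, and those called lower were Ifit2, Irf8, Usp18 and Ddx58. The median was −0.10, near that of all genes at −0.01. This split moved with the scaling, and Isg15, Irf7, Oas1a, Ifi27 and Gbp6 lost their higher call under library total. Scaling by library total gave 3 higher and 16 lower with the median of all genes at −0.60, and without the globin genes or without genes over 1% of a library it gave 6 higher and 5 lower, Irf7 and Ifi27 falling below 2-fold.

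**Figure D1:**
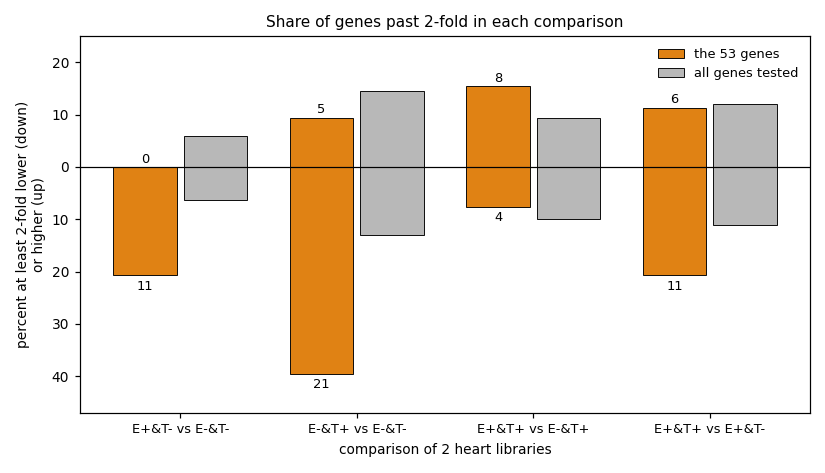
Share of the 53 genes (orange, with the number of genes) and of all genes tested (grey) that were at least 2-fold higher (bars upward) or lower (bars downward), in percent, in each comparison of 2 heart libraries. The orange bar reaches 39.6% downward in E-&T+ vs E-&T-, against 13.1% of all genes, and there is no upward orange bar in E+&T- vs E-&T-.

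The E-&T- heart held the highest value of the 4 libraries for 32 of the 53 genes, or 60.4%, where 25.4% of the 13731 genes that averaged at least 4 normalized reads were highest there. It held the lowest value for 4 of them, Irf8, Mx1, Ifitm2 and Ifitm3, against 23.8% of all genes. The lowest value fell in E+&T+ for 21 genes, or 39.6%, against 25.4% of all genes. By role, E-&T- was highest for 10 of the 12 GTPases, 5 of the 6 MHC class I genes, 11 of the 19 effectors, 6 of the 12 sensors and signalling genes and none of the 4 membrane factors. Both libraries with a tumor were below both without for 27 genes, or 50.9%, against 28.7% of all genes, and above both for 9, or 17.0%, against 27.4%.

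**Figure D2:**
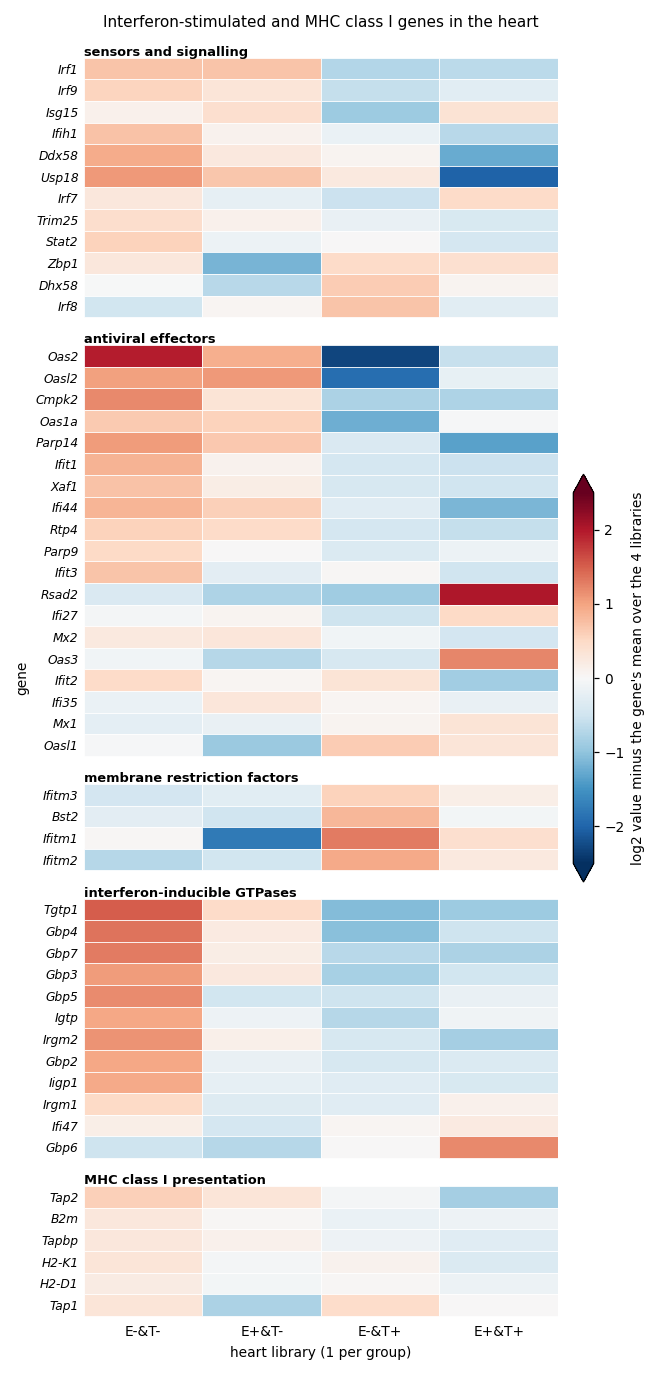
Deposited log2 value of each of the 53 genes in the 4 heart libraries, minus that gene's mean over the libraries, in rows grouped by role (red above the mean, blue below, colors ending at 2.5 on either side). The first column is the reddest for 32 of the 53 genes, most plainly in the GTPase block, while the 4 membrane restriction factors are reddest in E-&T+.

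Of the ligands, almost nothing was read. Of 17 interferon genes in the data, 14 had 0 reads in all 4 libraries, among them Ifnb1 and all 9 of the numbered interferon alpha genes, a count that allows up to 3 reads per library. Ifng, which encodes interferon gamma, had 1 read in E+&T+ and 0 in the others. Ifnk had 0, 0, 4 and 0 reads and Ifnz had 0, 1, 5 and 0. Only Ifnz passed the minimum for a call, and on its 5 reads it was called higher in E-&T+ against E-&T- and lower in E+&T+ against E-&T+, both with a counting interval that included 0. No difference in a ligand was therefore detectable at this depth.

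The receptors differed among themselves. Ifngr2, the signalling chain of the interferon gamma receptor, stood at 1066, 855, 311 and 374, a log2 fold change of −1.77 (95% interval −1.96 to −1.6) with a tumor and of −1.19 (−1.38 to −1.01) with a tumor in exercised mice. Its partner Ifngr1 stood at 545, 438, 585 and 445 and the type I chains Ifnar1 and Ifnar2 at 53.8, 57, 44.1 and 37.2 and at 487, 409, 485 and 432, all within 2-fold. Ifnlr1 of the interferon lambda receptor had 10, 19, 7 and 14 reads, and its shared chain Il10rb stood at 588, 544, 403 and 373. The 22 genes of the receptor and JAK-STAT list held 3 called higher and 3 lower with a tumor, with a median of −0.05. Of all genes, 14.6% were called higher and 13.1% lower in E-&T+ against E-&T-.

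The feedback inhibitor Socs3, which also answers to interleukin 6, was higher in each library than in the one before it in this order, at 87.4, 219.6, 687 and 1529, and was called higher in all 4 comparisons. Ptpn2, a phosphatase of STAT proteins, stood at 79.3, 85.8, 210.0 and 259. Socs1, the feedback inhibitor of interferon gamma signalling, had 10, 14, 12 and 5 reads, too few to place its change of −0.1 (−1.45 to 1.25) with a tumor.

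Among the 12 sensors and signalling genes, 3 were called lower and 1 higher in E-&T+ against E-&T-, with a median of −0.83. The shares of all genes there were 13.1% lower and 14.6% higher. Irf1, the factor that interferon gamma induces through the GAS element printed above, stood at 533, 535, 195 and 202, so both libraries with a tumor were below both without. Its log2 fold change was −1.45 (95% interval −1.69 to −1.22) without exercise and −1.4 (−1.65 to −1.16) with exercise, and exercise by itself left it at 0.01 (−0.17 to 0.18). Irf9, the DNA-binding subunit of the type I complex, stood at 276, 232, 123 and 152 and fell by 1.16 on the log2 scale with a tumor. Stat2, its partner, stood at 76.6, 46.1, 51.1 and 37.3, and its largest change was −0.72 (95% interval −1.29 to −0.19) with exercise.

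Irf7, the amplifier of type I interferon production, stood at 51.5, 36.1, 29 and 59, with a change of 1.0 (95% interval 0.37 to 1.69) in E+&T+ against E-&T+, just at the 2-fold line. Parp14, by comparison, was just short of that line there, at −0.98. Isg15, a ubiquitin-like protein that is joined to others, stood at 115, 140.2, 55.4 and 136, with a log2 change of −1.04 (95% interval −1.52 to −0.58) with a tumor and of 1.28 (0.84 to 1.75) in E+&T+ against E-&T+. E-&T+ was thus the 1 low library for Isg15 with the deposited normalization. Under library-total scaling E+&T+ differed by 0.69 from E-&T+ and by −0.76 from E+&T-. Usp18, the protease that removes Isg15 from its targets, had 16, 15, 11 and 1 reads.

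Irf8, a factor of macrophages and dendritic cells, was the only gene of this role called higher in E-&T+ against E-&T-. It stood at 150.3, 217, 347 and 172, and its log2 values differed by 1.2 (95% interval 0.92 to 1.5) for E-&T+ against E-&T- and by −1.01 (−1.29 to −0.74) for E+&T+ against E-&T+. The RNA sensors Ddx58, which encodes RIG-I, and Ifih1, which encodes MDA5, stood at 125, 77.8, 67.9 and 26.4 and at 54.8, 35.3, 29 and 19.8. Ddx58 was called lower in both comparisons that use E+&T+, with −1.33 (−2.1 to −0.69) against E-&T+ and −1.52 (−2.29 to −0.9) against E+&T-. Trim25, the ubiquitin ligase of RIG-I, changed by less than 2-fold, at 407, 329, 265 and 229. Dhx58, a regulator of both, and Zbp1, a sensor of Z-form nucleic acid, had between 6 and 21 reads per library, and the calls of Zbp1 rest on such counts.

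The adaptors that carry nucleic acid sensing were mostly within 2-fold. With a tumor 2 of 16 adaptors were called higher and 1 lower, against 14.6% and 13.1% of all genes. By size of change the leading ones were Tlr7 at 26.6, 43.4, 75.2 and 48.1, Traf6 at 58.6, 66.8, 136 and 114, Mavs at 413, 488, 216 and 281 and Tmem173, which encodes STING, at 78.1, 101, 122 and 103. Tlr7, a sensor of single-stranded RNA, and Traf6, a ligase of its pathway, were the ones called higher, while Mavs, the adaptor of RIG-I, stayed short of 2-fold at −0.93 (95% interval −1.17 to −0.7). The gene called lower was Nlrc5, described with MHC class I.

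Of the 19 antiviral effectors, 9 were called lower with a tumor in mice without exercise and none higher, with a median of −0.86. The shares of all genes were 13.1% lower and 14.6% higher. Oasl2, a member of the oligoadenylate synthetase family, stood at 65.1, 68, 7.72 and 27.4, a change of −2.92 (95% interval −4.24 to −2.02), and it was called higher again in E+&T+ against E-&T+, by 1.7 (0.64 to 3.07). Oas2 had 16, 9, 0 and 2 reads, so with 3 reads as the floor for E-&T+ it was lower there by at least 2.79 on the log2 scale with its 16 reads taken as exact. The counting interval, which also covers the error of the 16 reads, ended at −2.33. Parp14, a mono-ADP-ribosyltransferase, stood at 277, 211, 100.4 and 50.5, with −1.46 (−1.8 to −1.14) for the tumor without exercise and −2.04 (−2.56 to −1.61) with exercise. For Parp14, both libraries with a tumor were below both without, and E+&T+ was the lowest.

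Ifi44, Rtp4, Xaf1 and Cmpk2 followed the same order of tumor below no tumor. Ifi44 stood at 115, 96.9, 51.9 and 28.6, and Rtp4, a chaperone of membrane receptors, at 125, 117, 61.6 and 54.8. Xaf1, a factor that promotes apoptosis, stood at 184, 126, 81.9 and 77.7, and Cmpk2, a mitochondrial nucleotide kinase, at 54.6, 29.9, 13.1 and 13.2. Their log2 changes in E-&T+ against E-&T- were −1.14, −1.01, −1.16 and −1.98. Rtp4 was the gene nearest to the 2-fold line from inside, and Ifih1, at −0.89, the nearest from outside.

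The Ifit genes encode proteins that bind foreign RNA ends and lie side by side on chromosome 19. Ifit1 stood at 133, 77.8, 52.8 and 49.3, Ifit2 at 57.2, 42.5, 52.1 and 22 and Ifit3 at 143, 72.3, 88.2 and 61.3. Each was highest in E-&T- and lowest in E+&T+, and only Ifit1 was called lower with a tumor, at −1.31 (95% interval −1.8 to −0.87). Ifit2 was called lower in E+&T+ against E-&T+, at −1.21 (−2.06 to −0.5). The near-identical copy Ifit3b, which could share reads with Ifit3, stood at 62.6, 15.3, 21.1 and 23.

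Rsad2, which encodes the antiviral enzyme viperin, was 1 of 5 effectors called higher in E+&T+ against E-&T+, of 18 tested, against 9.39% of all genes. It stood at 371, 283, 260.0 and 1961, a rise of 2.91 (95% interval 2.74 to 3.1) in E+&T+ against E-&T+ and of 2.79 (2.62 to 2.97) against E+&T-, the largest rise of the 53 genes in either comparison with the deposited values. Its neighbour on chromosome 12, Cmpk2, is read from the opposite strand and was at 13.1 in E-&T+ and 13.2 in E+&T+. All 10 of the erythroid markers read were higher in E+&T+ too, with summed levels of 663832, 645719.8, 662656 and 4722599. Neutrophil, T and NK cell, endothelial and cardiomyocyte markers also had their highest sums in E+&T+, and the other marker lists did not. The part of any of these cell types in the rise of Rsad2 was not tested. Isg20, an exonuclease gene named after its values were seen, rose in the same library by 3.03 (2.84 to 3.24). Ifi27 stood at 467, 501, 335 and 675 and passed 2-fold in E+&T+ against E-&T+ by a little, at 1.01 (0.82 to 1.2).

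The other effectors were within 2-fold or had few reads. Parp9 and Ifi35 were called in no comparison, at 134, 95.9, 73.1 and 85.3 and at 99.8, 139, 117 and 98.5. Mx1 had 6, 8, 10 and 10 reads and Mx2 had 10, 13, 10 and 6, so their intervals in E-&T+ against E-&T- reached beyond 2-fold on both sides of 0. Oas1a, Oas3 and Oasl1 had between 3 and 19 reads per library, and their calls rest on those counts. In all, 9 of the 53 genes averaged under 16 normalized reads. Of the 66 calls over the 4 comparisons, 4 had a counting interval that included 0, those of Oas2 in both comparisons with E+&T-, of Oas1a and of Oasl1.

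The 4 membrane restriction factors were an exception to the fall with a tumor, each being highest in E-&T+. Ifitm3, the most abundant of them, blocks the fusion of virus with endosomes and stood at 3244, 3637, 6658 and 5000.0. Ifitm2 stood at 455, 532, 1437 and 881, Ifitm1 at 166, 46.8, 403 and 219, and Bst2, which encodes tetherin, at 28.8, 24.3, 62.9 and 32.8. For all 4 genes both libraries with a tumor were above both without. In E-&T+ against E-&T- the log2 changes were 1.04 (95% interval 0.97 to 1.1) for Ifitm3, 1.66 (1.5 to 1.82) for Ifitm2, 1.27 (1.0 to 1.55) for Ifitm1 and 1.1 (0.45 to 1.85) for Bst2. Under library-total scaling Ifitm3 and Bst2 fell short of 2-fold, with none of the 4 turning its direction. In E+&T+ against E+&T- the median of the 4 was 0.59, and it turned to −0.13 under that scaling.

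Between E+&T+ and E-&T+ the 4 factors were all lower, with log2 changes of −0.41 to −0.92, and none passed 2-fold. Ifitm1 alone was called in E+&T- against E-&T-, at −1.81 (95% interval −2.31 to −1.35), the largest fall of the 53 genes in that comparison. It was also the gene called higher with a tumor both without and with exercise, where it rose by 2.2 (1.77 to 2.69) from its low level in E+&T-. Ifitm1, Ifitm2 and Ifitm3 lie together on chromosome 7, and similar 3′ ends could have divided reads between them. Markers of macrophages moved alongside: 8 of the 11 were called higher in E-&T+ against E-&T-, where 14.6% of all genes were. Their summed levels were 3768, 4926, 9419 and 5853. As for Irf8, the highest of these sums was in E-&T+ and the lowest in E-&T-. The sums of monocyte and of fibroblast markers, given below, had the same extremes, while Ifitm1 and Bst2 were lowest in E+&T-. The sum of dendritic cell markers, also given below, was instead lowest in E-&T+. The part of any of these cell types in the levels of the membrane factors and of Irf8 was not tested.

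Of the 12 interferon-inducible GTPases, 10 were highest in E-&T-, while Gbp6 and Ifi47 were highest in E+&T+. All 12 were lower in E+&T- than in E-&T-, 7 of them by 2-fold, with a median of −1.06, and 11 of 12 were lower in E-&T+ than in E-&T-, 9 of them by 2-fold, with a median of −1.61. Of all genes tested, 6.4% and 13.1% were called lower in these comparisons. The summed level of the GTPases was 2807, 1339.7, 1058 and 1301, so the sum in E-&T- was above the other 3. Single genes differed more between those 3 libraries, as Tgtp1 stood at 93.2, 30.7 and 35.2 in E+&T-, E-&T+ and E+&T+. The endothelial markers, for comparison, summed to 8506, 6883, 7244 and 8856.

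The guanylate-binding proteins Gbp2, Gbp3, Gbp5 and Gbp7 lie in 1 cluster on chromosome 3, at chr3:142496934-142638008 in GRCm38.p6. Gbp7 stood at 487, 222, 121 and 113, a change of −1.13 (95% interval −1.36 to −0.9) with exercise and of −2.0 (−2.3 to −1.73) with a tumor. Gbp2 stood at 276, 124, 105 and 109, Gbp3 at 136, 77.8, 36 and 46 and Gbp5 at 114, 35.2, 34.3 and 43.8. For Gbp5 the 3 libraries other than E-&T- were level, with 100, 39, 39 and 40 reads, while Gbp3 and Gbp7 were lower with a tumor than with exercise. With a tumor the changes were −1.39 for Gbp2, −1.89 for Gbp3 and −1.71 for Gbp5.

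A second cluster of guanylate-binding proteins lies on chromosome 5 and held genes that went opposite ways. Gbp4 stood at 204, 92.2, 37.7 and 54.8, a change of −2.4 (95% interval −2.94 to −1.94) with a tumor. Gbp6 stood at 97.6, 84.9, 141 and 321, higher in E+&T+ than in E-&T+ by 1.18 (95% interval 0.91 to 1.47) and than in E+&T- by 1.91 (1.58 to 2.27). Among their near copies in this cluster, Gbp9 stood at 85.3, 30.7, 13 and 18.7 like Gbp4, and Gbp10, named after its values were seen, at 28.8, 10.7, 41.4 and 95.9 like Gbp6. Reads could have been divided between these copies.

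Gbp2, Gbp4, Gbp5 and Gbp7 were called lower in both comparisons with E-&T-. So were Iigp1, Tgtp1 and Igtp of the immunity-related GTPases. Iigp1 on chromosome 18, the most abundant of them, stood at 811, 358, 339 and 319, with −1.18 (95% interval −1.36 to −1.0) for exercise and −1.25 (−1.44 to −1.08) for the tumor. Tgtp1 stood at 191, 93.2, 30.7 and 35.2, and its change of −2.6 (−3.2 to −2.1) with a tumor was the largest of the 12. Its near-identical copy Tgtp2 stood at 181, 96.8, 33.3 and 16.6, and the pair could share reads. With the deposited normalization Tgtp1 was the only GTPase also called lower with a tumor in exercised mice, at −1.38 (−2.03 to −0.83). Without the globin genes in the total Irgm2 and Gbp7 were called lower there too, and with the whole library total Gbp3 and Gbp4 as well.

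Igtp stood at 242, 113, 74.8 and 115 and Irgm2, whose annotation overlaps that of Igtp on chromosome 11, at 136, 68.7, 45.7 and 34. Irgm2 and Ifit3, each at −0.97 with exercise, were just short of 2-fold there, where Tgtp1, at −1.03, was just past it. The regulator Irgm1 and Ifi47 were called in no comparison, at 34.2, 18.9, 19.3 and 26.2 and at 79.1, 51.5, 73.2 and 83.1. Between E+&T+ and E-&T+, 9 of the 12 GTPases were higher and 3 lower, with a median of 0.27 and Gbp6 alone past 2-fold, and that median turned to −0.31 under library-total scaling. In E+&T+ against E+&T-, without the E-&T- library, the median was −0.17, with 5 counting intervals below 0 and 2 above, where 25.7% of all genes had an interval below 0 and 26.8% above.

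**Figure D3:**
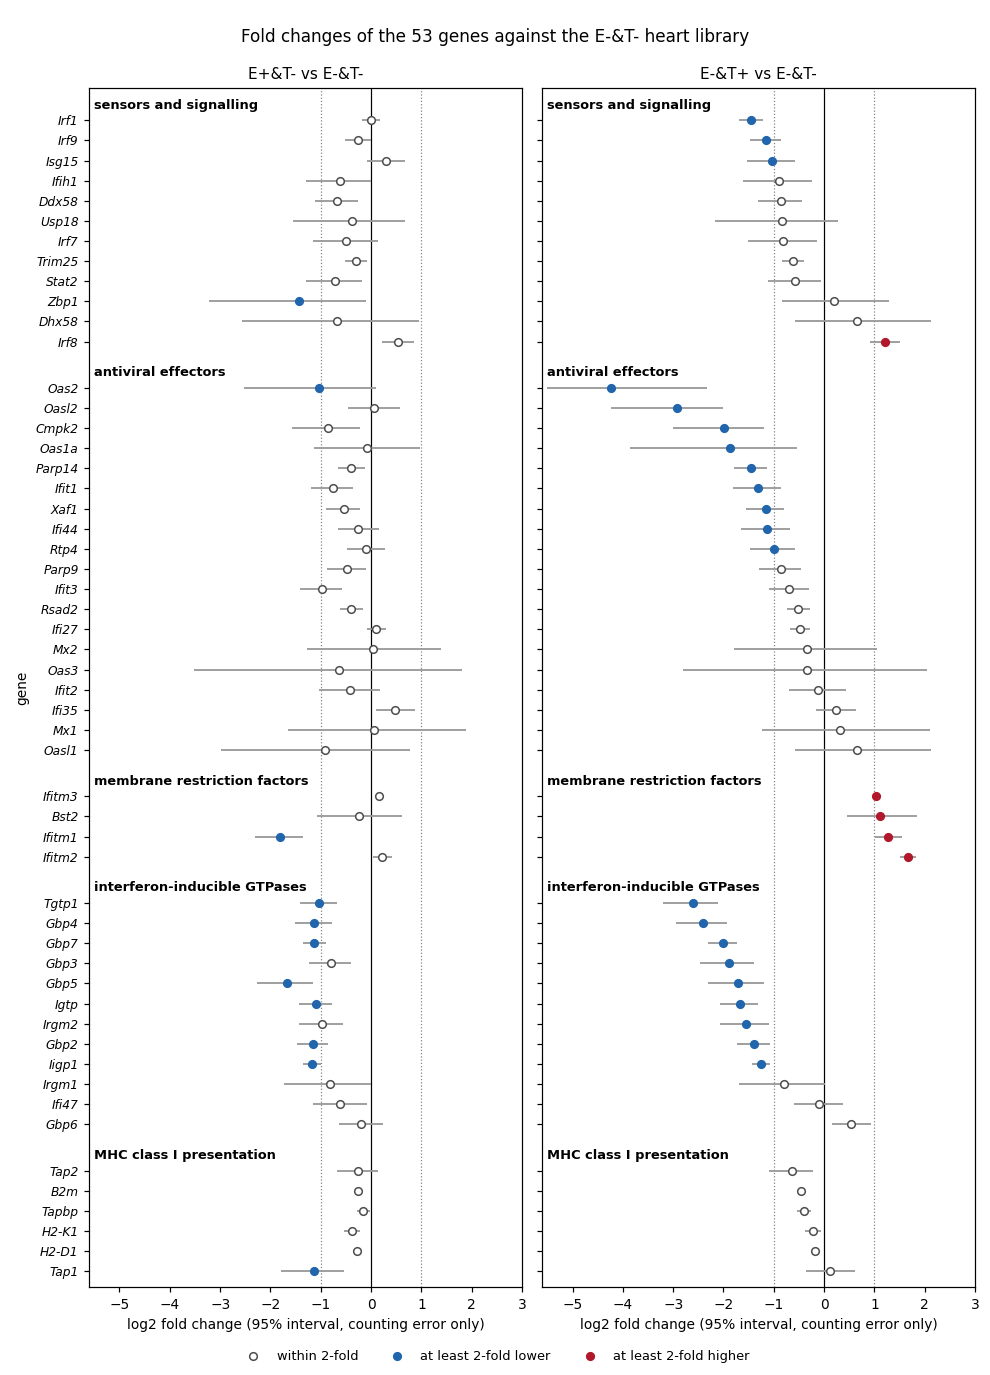
Log2 fold change of each of the 53 genes in E+&T- vs E-&T- (left) and E-&T+ vs E-&T- (right), in rows grouped by role, with bars for the 95% interval of the reads (counting error only, cut at the left edge for Oas2) and dotted lines at 2-fold. All 12 GTPases lie left of 0 on the left panel and 11 on the right panel, and the 4 membrane restriction factors lie right of the 2-fold line on the right panel.

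The chains of MHC class I changed little. B2m, the light chain of MHC class I, stood at 8101, 6741, 5881 and 6042, and the heavy chain genes H2-D1 and H2-K1 at 5506, 4550.1, 4857 and 4302 and at 757, 581, 650.2 and 468. None of these was called in any comparison, and with 5525 to 7453 reads for B2m its intervals were narrow. Its change was −0.27 (95% interval −0.31 to −0.22) with exercise and −0.46 (−0.51 to −0.41) with a tumor. Tapbp, which loads peptide onto MHC class I, stood at 1051, 943, 795 and 703. All 4 of these genes were highest in E-&T-. CDF1 mice carry the d haplotype of the H2 locus and the reference genome mm10 the b haplotype, so reads of H2-D1 and H2-K1 may have been lost or moved in alignment to an extent that was not tested.

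The peptide transporter genes Tap1 and Tap2 differed from each other. Tap1 stood at 72.2, 32.4, 78.6 and 58 and was called lower with exercise, at −1.13 (95% interval −1.78 to −0.54), with the lowest value in E+&T-. Tap2 stood at 118, 97.7, 74.9 and 42.8 and was called lower in E+&T+ against E+&T-, at −1.17 (95% interval −1.76 to −0.66). Psmb9, an immunoproteasome subunit whose start faces that of Tap1, stood at 231, 162, 101 and 82.2. Nlrc5, the transactivator of MHC class I genes, had 32, 7, 3 and 8 reads and was called lower in both comparisons with E-&T-, at −2.36 (−3.96 to −1.33) with exercise and −3.41 (−6.14 to −2.12) with a tumor.

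Of the 19 other MHC class I presentation genes tested in E-&T+ against E-&T-, 5 were called lower and none higher. The shares of all genes were 13.1% and 14.6%, and the median of the 19 was −0.40. The leading ones were the nonclassical genes H2-T24 at 67.2, 30.7, 14.8 and 28.5, Cd1d1 at 41.1, 28.9, 17.5 and 30.6 and Mr1 at 50.5, 44.2, 102 and 59.1, besides Psmb9. Mr1 was higher in E-&T+ than in E-&T-, short of 2-fold. With exercise alone 2 of 20 genes were called lower and 1 higher, against 6.4% and 5.88% of all genes.

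**Figure D4:**
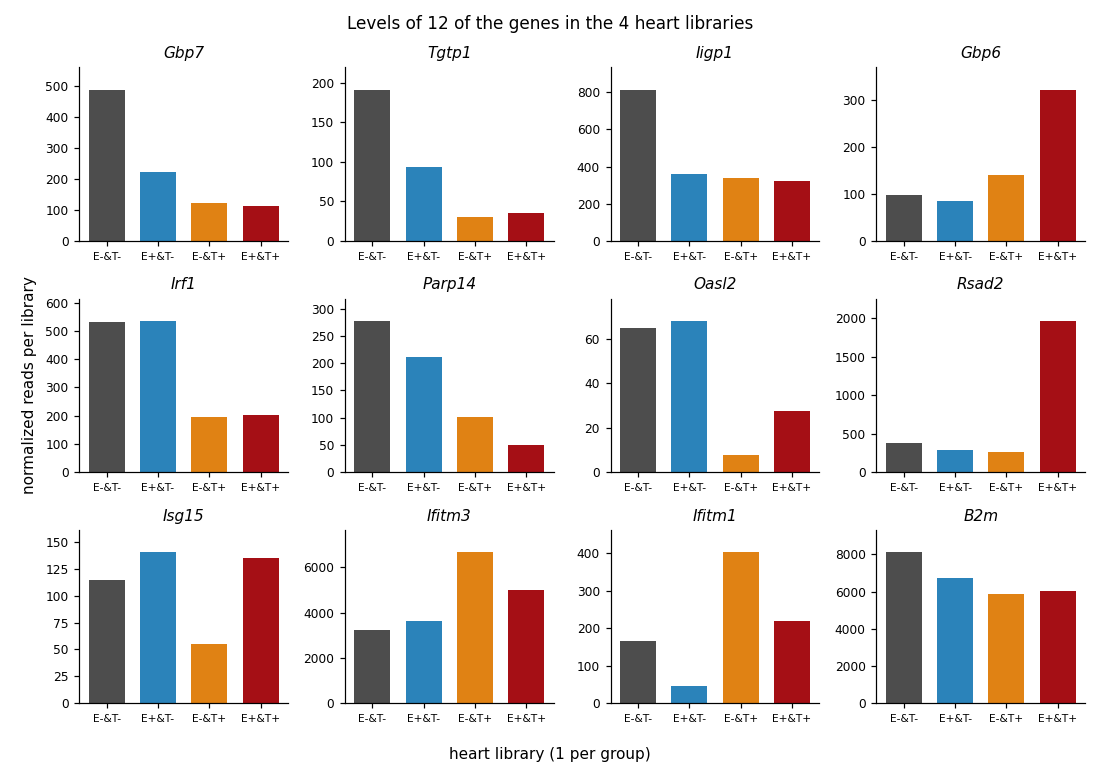
Normalized reads of 12 of the genes in the 4 heart libraries, 1 bar per library, each panel with its own axis from 0. Gbp7, Tgtp1 and Iigp1 are highest in E-&T-, Irf1 and Parp14 are lower in both libraries with a tumor, Rsad2 and Gbp6 are highest in E+&T+, and Ifitm3 and Ifitm1 are highest in E-&T+.

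Interferon-stimulated genes outside the 53 were also more often lower than higher in both comparisons with E-&T-. Of 54 tested in E-&T+ against E-&T-, 16 were called lower and 6 higher, with a median of −0.54, where 13.1% and 14.6% of all genes were called lower and higher. Of 53 tested in E+&T- against E-&T-, 9 were called lower and 1 higher, with a median of −0.32, where the shares of all genes were 6.4% and 5.88%. Beside Gbp9 and Tgtp2, a leading one was Cd274, which encodes the checkpoint ligand PD-L1, at 28.4, 21.8, 6.01 and 13.2. In E+&T+ against E-&T+ there were 3 higher and 7 lower of 52, where the shares of all genes were 9.39% and 10.0%. The 53 genes held 8 higher and 4 lower there. In E+&T+ against E+&T- there were 5 higher and 9 lower of 52, where the shares of all genes were 12% and 11.1%.

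The 39 genes with a promoter could also be divided by motif. For comparison, 13.1% of all genes were called lower and 14.6% higher in E-&T+ against E-&T-. Of the 21 with an ISRE core, 10 were called lower and 3 higher in E-&T+ against E-&T-, with a median of −0.89, and of the 18 without, 6 were called lower and 2 higher, with a median of −0.31. In E+&T- against E-&T- the medians were −0.72 with and −0.34 without an ISRE core, and in E+&T+ against E+&T- the order turned, with −0.18 and −0.46. Of the 12 with a GAS core, 7 were called lower and 3 higher with a tumor, with a median of −1.5 against −0.69 for the 27 without, while in E+&T- against E-&T- the order was the opposite, with −0.33 and −0.61. The GTPases make up 8 of the 21 genes with an ISRE core, so role and motif are not separate here.

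Markers of several immune cells differed between the libraries as well. Among all genes, 14.6% were called higher and 13.1% lower in E-&T+ against E-&T-. In E-&T+ against E-&T-, 9 of 10 neutrophil markers were called higher, with summed levels of 150.0, 101, 3270.4 and 6182, led by Mmp8, Camp, S100a8 and Ngp, and 5 of 7 monocyte markers, with 318, 629.7, 1166 and 1131. Of 8 fibroblast markers 4 were called higher, with summed levels of 26787, 32228, 56989 and 33605. Of 11 dendritic cell markers tested 7 were called lower, with summed levels of 3473, 3780.0, 439.9 and 1089.7, led by the MHC class II genes H2-Aa, H2-Eb1, Cd74 and H2-Ab1, which interferon gamma also induces. Flt3 was at 0 in all libraries, and Cd209a and Ccr7 were at 0 in E-&T+.

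B cell markers summed to 22.5, 19.1, 3.46 and 12.1 and T and NK cell markers to 77.4, 43.9, 51.8 and 87.2, with Cd79a, Ms4a1, Cd8a, Klrb1c and Prf1 at 0 reads in E-&T+ and Pax5 at 0 in all 4. Of 8 endothelial markers, 3 were called lower with a tumor, Kdr at −1.89, Tek at −1.41 and Cdh5 at −1.26. Another 3 of the 8 were higher, by up to 0.78, and the median was −0.44. With exercise alone, 6 of the 8 were lower and none was called, with a median of −0.41, beside the −1.06 of the GTPases. In bulk tissue, fewer cells of a type and less RNA per cell cannot be told apart, and the part of any cell type in the changes of the 53 genes was not tested.

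**Figure D5:**
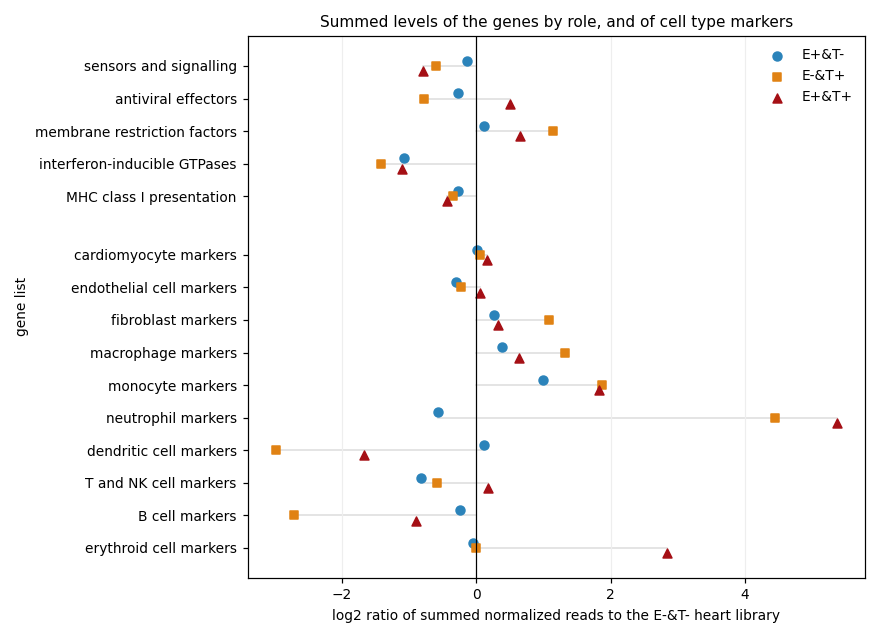
Log2 ratio of the summed normalized reads of each list to the E-&T- heart library, for the 53 genes by role (upper rows) and for cell type markers (lower rows), with E+&T- as circles, E-&T+ as squares and E+&T+ as triangles. The GTPases lie left of 0 in all 3 libraries, the membrane factors lie right of 0, and the neutrophil markers move the farthest to the right in both libraries with a tumor.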

How the data were processed

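Heart mRNA-seq libraries of 4 groups were analysed, 1 per group. Per the paper and the labels, total RNA was extracted with TRIzol, libraries were made with the QuantSeq 3′ kit, reads were aligned with Bowtie2 to mm10, counted per gene with bedtools and quantile normalized in edgeR by the authors. Whether the counting used strand is not given in the sources used here, so overlapping genes on opposite strands may share reads. The values the authors deposited are log2 normalized read counts, 1 per gene and library, and carry this normalization.

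Whole reads were recovered by inverting a quantile adjustment with dispersion 0.149 and a log2 step with 1 added, which matched every deposited value to within 0.000539. Between 5 and 99 reads, 100% of 25460 values came out within 0.1 of a whole number. Read ratios received 95% Clopper-Pearson intervals, which cover counting error only and not differences between mice. Groups were compared as single libraries. No test of tumor or exercise over 2 libraries a side was run, and no p-value is given. Since 1 was added before the log2, fold changes of genes with few reads are understated. Calls needed a fold of 2 and 4 normalized reads in 1 of the 2 libraries.

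The members and lists were chosen with earlier results of these data known. Values per library are given for members averaging at least 16 normalized reads and called in any comparison and for 14 further key genes, and otherwise as ranges or counts. From the pathway lists the 4 genes with the largest change with a tumor and a mean of at least 16 are named, with the ligands, receptors, Socs1, Socs3 and Nlrc5, and some genes of these lists are not reported here. Most marker genes are given as counts and sums. Gene positions and promoters came from RefSeq for GRCm38.p6, the assembly also called mm10, and overlaps from GENCODE. Alternatives covered the scaling, the pseudocount, the minimum and the fold. The scripts were checked on artificial counts with known answers. Figures were drawn with matplotlib 3.10.9, and computations used pandas 2.3.3, scipy 1.17.1 and numpy 2.4.6 under Python 3.11.15.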

Additional observations from a re-analysis of the deposited data

How the results depend on the processing

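With 1 library per group, no library could be left out of a comparison, and the pair of tumor comparisons and the pair of exercise comparisons were set side by side without a test. Scaling by library total gave 3 genes called higher in E-&T+ vs E-&T-, as did the totals without globin genes (3) and without genes over 1% of a library (3). In E+&T+ vs E-&T+ it gave 3 higher, 16 lower and a median of −0.68, and in E+&T+ vs E+&T- 28 lower and a median of −1.03, where all genes had medians of −0.60 and −0.74. Measured from those medians, the 53 genes stood at −0.08 and −0.29, against −0.09 and −0.30 with the deposited normalization. No called gene turned its direction under the 3 scalings.

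With a fold of 1.5 in place of 2, 24 genes were called lower in E+&T- vs E-&T-, 10 lower in E+&T+ vs E-&T+, and 11 higher and 22 lower in E+&T+ vs E+&T-. The listed genes tested numbered 53, 52 and 53. The matching shares of all genes, in the same order, were 12.97% lower, 19.54% lower, and 20.81% higher with 21.64% lower. The other 80 values of counts and medians under the alternatives, which included a pseudocount of 4, a minimum of 16, no minimum and a minimum of 4 in both libraries, stayed within 1.5 times the count or within the counting error of the median. For single genes, 86 values moved beyond their counting interval and 554 did not. Depth limited the 9 genes with a mean under 16 normalized reads.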
